A study of Bos taurus with 32 samples.

Results

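The liver transcriptome of Ayrshire dairy cows that had been fed a high-energy diet (HIGH) before calving was compared, 1 d after calving, with that of cows fed a controlled-energy diet (CON). The comparison took the 6 liver arrays whose titles give the HIGH group at 1 d and the 4 whose titles give the CON group at 1 d, which is 10 of the 32 arrays of the series, and all 24016 probe sets that are not array controls. The other 22 arrays came from HIGH and CON cows at -8 d relative to calving (5 arrays per diet) and at 9 d after it (6 arrays per diet). Both diets were fed over the 6 weeks before predicted calving, and the feed given after calving is not given in the sources used here. The 10 arrays at 1 d came from 10 different cows, numbered in the labels, of the 12 cows that the labels name. Values are log2 RMA values, a scale on which a difference of 1 is a doubling of the hybridisation signal, and differences are HIGH minus CON.

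Around calving, a dairy cow eats less than milk synthesis requires, and fatty acids released from adipose tissue reach the liver. Hepatocytes oxidise them in mitochondria and peroxisomes, convert them to ketone bodies, or store and export them as triglyceride, while glucose is made from propionate, lactate, glycerol and amino acids. The same days bring an acute phase response, in which the liver secretes haptoglobin, serum amyloid A and other plasma proteins. Overfeeding before calving is a common experimental model for a large mobilisation of fat after calving.

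The 10 arrays were alike as whole profiles. Pairwise correlations over probe sets ran between 0.986 and 0.993, array medians over the whole series lay between 5.87 and 5.935, and the first principal component, which held 21.2% of the variance, spanned -10.9 to 31.4 in HIGH and -19.8 to 15.8 in CON. The median standard deviation of a probe set over arrays was 0.178 in HIGH and 0.153 in CON. The 14 measured hepatocyte markers, by which the tissue was checked, were bright, with a mean of 12.86 to 12.98 in HIGH and 12.90 to 13 in CON. One measure of RNA integrity separated the diets. The difference between the 3' and the 5' probe sets of the cyclophilin control was 1.24 ± 0.0194 (SD, n = 6; 1.2 to 1.25) in HIGH and 1.11 ± 0.0606 (n = 4; 1.05 to 1.18) in CON, with no overlap (exact permutation test, two-sided p = 0.00952, the smallest that 210 splits of 6 against 4 allow, adjusted p = 0.0381 over 4 control transcripts). The corresponding differences of the elongation factor control (-1 in HIGH, -1.18 in CON; exact adjusted p = 0.19), GAPDH (0.573 and 0.475; exact adjusted p = 0.331) and actin (1.59 and 1.64; exact adjusted p = 0.819) overlapped. Scan or extraction batches are not given in the sources used here.

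The diets differed past the threshold in a single gene. SLC18A2, the vesicular monoamine transporter that loads monoamines into secretory vesicles, was the 1 probe set of 24016 (0.00416%) with an adjusted p under 0.05 by limma, or 1 of 9155 named genes (0.0109%), and it was higher in HIGH. Its log2 values were 5.98, 5.56, 5.82, 5.74, 5.97 and 5.82 in the 6 HIGH arrays, against 4.98, 5.44, 4.97 and 5.44 in the 4 CON arrays. Every HIGH array lay above every CON array, although the lowest HIGH array exceeded the highest CON arrays by little. The log2 difference was 0.61 (SE 0.10, adjusted p = 0.0321), a 1.53-fold higher signal, on a probe set in the lower part of the array's range. Diet differences of SLC18A2 on the other days were 0.02 at -8 d and 0.19 at 9 d.

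The call for SLC18A2 rested on the whole set of 32 arrays. Differences here are estimates from a model of all 6 diet and day groups with cow as a random block, so they can depart slightly from the plain difference of the means. Fitted on the 10 arrays of 1 d alone, the difference was 0.61 with adjusted p = 0.952. When single arrays were left out, it kept its direction, between 0.54 and 0.69, but the call was lost without CON array 1 (adjusted p = 0.074), CON array 3 (0.211), HIGH array 3 (0.0925), HIGH array 5 (0.0802) or HIGH array 6 (0.0684). With the cyclophilin difference as a covariate, an alternative chosen after seeing the data, the difference was 0.46 (adjusted p = 0.727).

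**Figure D1:**
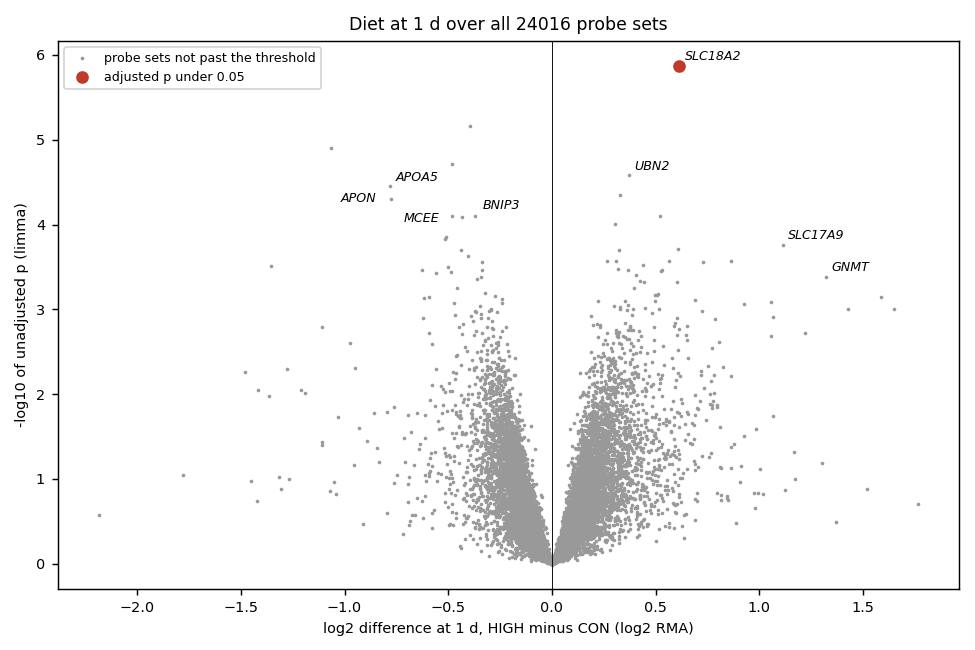
Log2 difference at 1 d, HIGH minus CON (x axis), against -log10 of the unadjusted limma p (y axis) for 24016 probe sets, each a point. SLC18A2, at 0.61, is the single probe set past the adjusted threshold, and APOA5 and APON are the leading named genes on the lower side.

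No probe set was lower in HIGH past the threshold. By limma at an unadjusted p under 0.05, 2013 probe sets (8.38%) differed, 1086 of them (4.52%) higher in HIGH and 927 (3.86%) lower. The median difference over probe sets was 0.00318, with a standard deviation of 0.163, and 231 probe sets were above 0.5 and 107 below -0.5. The median 95% interval reached 0.212 to either side of its estimate, so for a typical probe set differences within that bound could not be told from 0. A p that misses the threshold does not show that the diets were alike.

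None of the other genes named by rank passed, and their values are given as a description. SLC17A9, the vesicular nucleotide transporter that packs ATP into vesicles, had log2 values of 9.29, 9.32, 10.18, 9.27, 10.23 and 9.93 in HIGH, against 8.49, 8.23, 8.52 and 9.15 in CON. All HIGH arrays were above all CON arrays, with a difference of 1.11 (SE 0.26, adjusted p = 0.243), and the diet difference of SLC17A9 was 0.42 at -8 d and 0.83 at 9 d. AP3S1, a subunit of an adaptor complex that sorts cargo to lysosome-related organelles, was 9.38 to 9.72 (median 9.48) in HIGH and 8.84, 8.34, 9.46 and 8.95 in CON. Only CON array 3 reached the HIGH range, and the difference was 0.61 (SE 0.14, adjusted p = 0.243). OST4, a small subunit of the oligosaccharyltransferase of the endoplasmic reticulum, differed by 0.26 without overlap, with 11.67 to 11.92 in HIGH and 11.34 to 11.64 in CON. FKBP2, a prolyl isomerase of the same compartment, was 11.58 to 11.88 in HIGH and 11.17 to 11.58 in CON, a difference of 0.41 that its other probe set did not share in sign.

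GNMT, glycine N-methyltransferase, which uses S-adenosylmethionine to methylate glycine, had the largest difference among the 12 leading genes on the higher side. Its values were 9.19, 7.57, 9.60, 7.99, 7.66 and 9.52 in HIGH, against 7.66, 6.96, 7.08 and 7.23 in CON. HIGH arrays 1, 3 and 6 stood well above all others, and HIGH arrays 2 and 5 reached no higher than CON array 1. The difference was 1.32 (SE 0.33, adjusted p = 0.249), and both probe sets of GNMT were higher in HIGH. The remaining leading genes on this side were UBN2, a chromatin protein of a histone chaperone complex (0.37, no overlap), DIS3, a nuclease of the RNA exosome (0.87, no overlap), the arginine methyltransferase PRMT2 (0.44, no overlap, not shared in sign by its other probe set), IKBIP (0.53, no overlap), the ciliary protein IQCB1 (0.53) and the membrane protein TMEFF1 (0.43). Their adjusted p values ran from 0.126 to 0.262. Signals of UBN2 (4.10 to 4.88 over both diets), IQCB1 (3.75 to 4.87) and TMEFF1 (3.54 to 4.39) were dim, below the lowest array median of 5.87.

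On the lower side APOA5 had the smallest p among named genes. APOA5, a liver-secreted apolipoprotein that promotes the clearance of triglyceride from plasma, was 12.10, 11.83, 11.69, 11.94, 11.86 and 11.44 in HIGH, against 11.97, 12.92, 12.93 and 12.53 in CON. CON array 1 lay within the HIGH range, and the other 3 CON arrays lay above it. The difference was -0.78 (SE 0.16, adjusted p = 0.142), and without CON array 1 it was -0.97 and passed (adjusted p = 0.00584). APON, an apolipoprotein, was 10.66, 10.77, 10.12, 10.55, 10.91 and 10.12 in HIGH, against 11.39, 11.49, 11.36 and 10.98 in CON. The groups did not overlap, and the difference was -0.78 (SE 0.16, adjusted p = 0.149), against diet differences of 0.19 at -8 d and -0.12 at 9 d.

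MCEE, the methylmalonyl-CoA epimerase through which propionate enters the citric acid cycle, was 11.16 to 11.39 (median 11.22) in HIGH and 11.74, 11.70, 11.90 and 11.56 in CON. All HIGH arrays were below all CON arrays, by 0.48 in the fit (-0.48, SE 0.11, adjusted p = 0.165), and the diet differences of MCEE had the same sign at -8 d (-0.28) and at 9 d (-0.30). GATM, which makes the precursor of creatine from arginine and glycine, was 12.13, 12.69, 11.95, 12.17, 12.15 and 11.91 in HIGH, against 12.91, 12.79, 12.93 and 12.19 in CON. HIGH array 2 and CON array 4 each stood in the other group's range. The difference was -0.56 (SE 0.14, adjusted p = 0.244), and it passed without CON array 4 (-0.73, adjusted p = 0.0492), as did POLG, the mitochondrial DNA polymerase (-0.46, adjusted p = 0.00943 without that array, and -0.32 with it). BNIP3, a mitophagy receptor (-0.37, shared in sign by 2 of its 3 probe sets), NT5C2, a cytosolic nucleotidase (-0.51), the ubiquitin ligase RNF25 (-0.34, not shared in sign by its other probe set), the nuclear import receptor IPO4 (-0.36) and the transcription factor ATOH1 (-0.24) did not overlap between diets. ANKRD13A (-0.51) and CDCA7L (-0.46) overlapped. The signal of ATOH1 was dim, at 3.54 to 3.78 in HIGH and 3.79 to 4.03 in CON, below the lowest array median of 5.87, and its groups nearly touched.

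**Figure D2:**
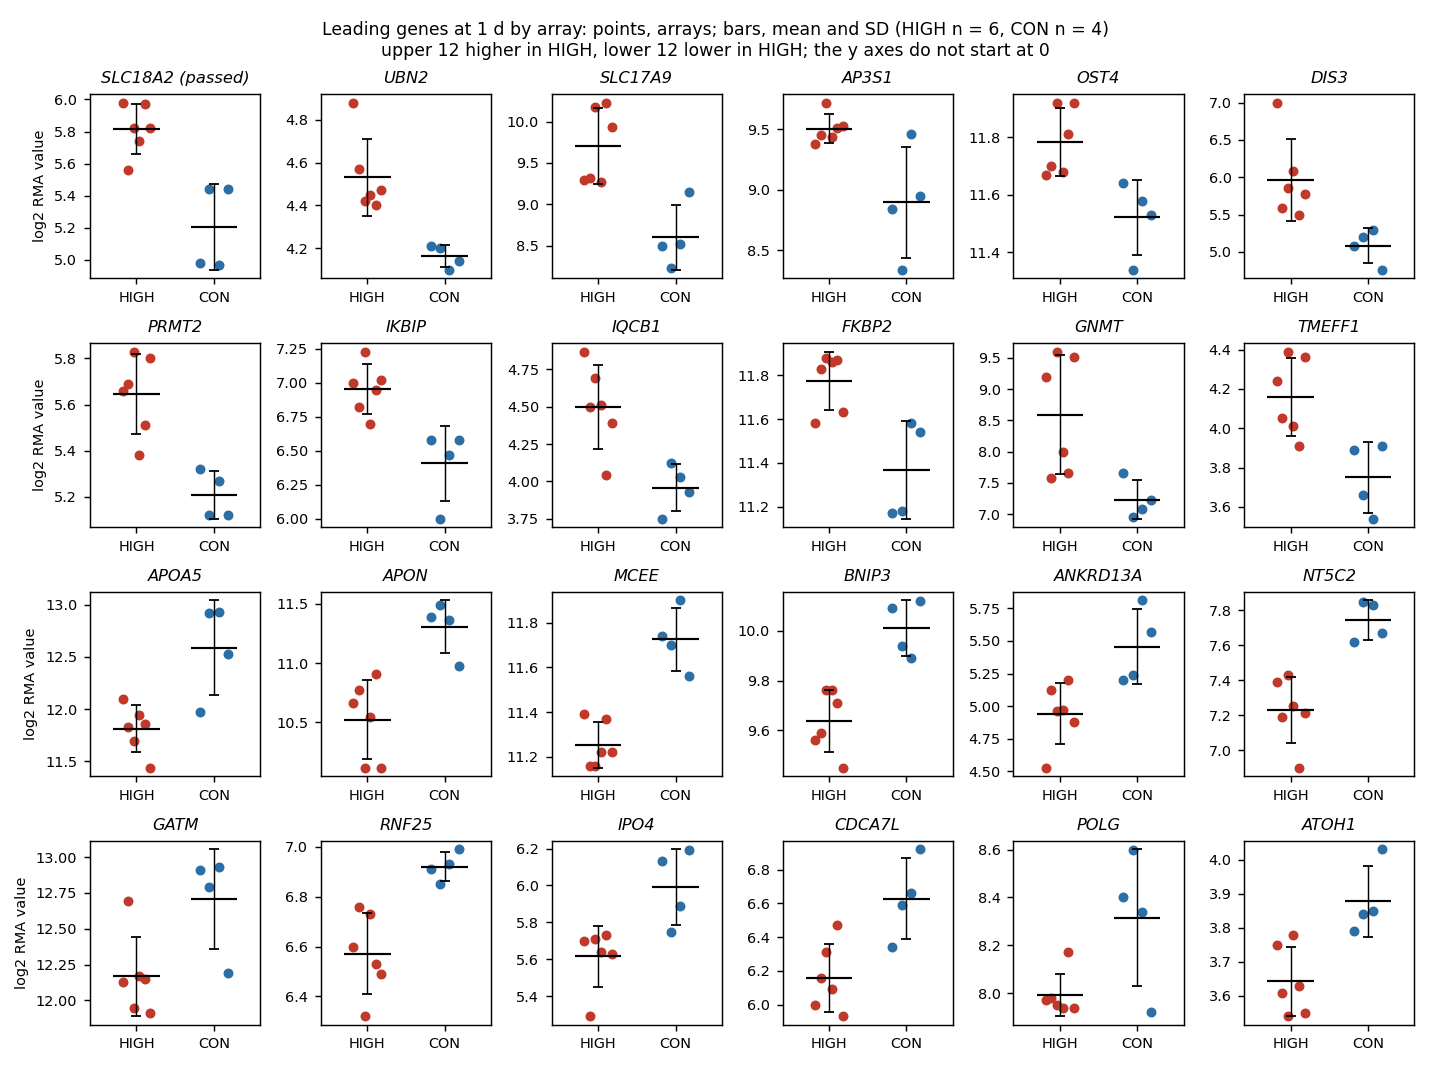
Log2 RMA values (y axes, which do not start at 0) by array in HIGH (n = 6) and CON (n = 4) for the 12 leading genes on each side, with the mean and SD. Of the 24 genes, 14 did not overlap between diets, 7 on each side, and in GNMT HIGH arrays split between 7.57 and 9.60.

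Over the array as a whole, 181 probe sets (0.754%) had groups without overlap, 84 (0.35%) with every HIGH array higher and 97 (0.404%) with every HIGH array lower. The 24 leading genes were chosen for small p, so their 14 without overlap describe them and test nothing. Of the 24, 14 had the same sign of diet difference at -8 d and 20 at 9 d, where other arrays were used, mostly of the same cows. Their diet difference had an unadjusted p under 0.05 in 4 genes at each of those days, against 4.27% of all probe sets at -8 d and 3.39% at 9 d. A choice for small p at 1 d favours probe sets with a small spread, and the fit shares that spread over all days. These counts on the other days therefore describe the genes and test nothing.

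Whether the diet difference at 1 d departed from that on the other days was tested directly. No probe set passed for 1 d against -8 d (limma, lowest adjusted p = 0.353, 1723 probe sets or 7.17% at an unadjusted p under 0.05, 3.72% higher and 3.45% lower), and none for 1 d against 9 d (lowest adjusted p = 0.424, 1629 or 6.78%, 3.35% higher and 3.43% lower). No probe set passed for diet at -8 d (lowest adjusted p = 0.586, 1025 unadjusted, 2.27% higher and 2% lower) or at 9 d (lowest adjusted p = 0.998, 813 unadjusted, 1.88% higher and 1.5% lower). Across probe sets, the diet differences at 1 d correlated with those at -8 d with r = 0.184 and with those at 9 d with r = 0.193, a description over probe sets that are not independent. The genes with the smallest p for 1 d against -8 d were SLC18A2, FKBP2, APON, ATOH1 and PDIA3, a disulfide isomerase of the endoplasmic reticulum that differed by 0.32 at 1 d and -0.33 at -8 d. For 1 d against 9 d they were UBN2, RNF25, IPO4, TEDC2, a tubulin complex gene that differed by -0.16 at 1 d and 0.34 at 9 d, and ACADS, described next. Without CON array 2, TEDC2 and an unnamed probe set passed for 1 d against 9 d, and without CON array 1 an unnamed probe set passed for 1 d against -8 d.

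Fatty acid oxidation had the largest share of genes lower in HIGH at an unadjusted p under 0.05 among the 39 lists described here. Of 31 genes listed, 27 were measured, none passed after adjustment, and 10 (37.0%) were lower at an unadjusted p under 0.05, against 378 of all 9155 genes (4.13%), while 0 were higher. Their median difference was -0.21, against 0.000812 for all genes, and 4 of the 27 were above 0. The genes of a pathway vary together within a cow, so their number is not a number of independent observations. Diet differences of the same list had medians of 0.056 at -8 d and 0.037 at 9 d, with 20 and 18 of 27 genes above 0.

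The members with the smallest p were acyl-CoA dehydrogenases and a carnitine acyltransferase. CPT1B, the muscle isoform of the enzyme that admits long-chain fatty acids to mitochondria, was 6.69, 7.36, 6.67, 6.56, 6.71 and 6.17 in HIGH, against 7.63, 8.34, 8.58 and 6.70 in CON. CON arrays 1 to 3 were above every HIGH array, CON array 4 lay within the HIGH range, and the difference was -1.11 (SE 0.32, adjusted p = 0.354). ACADS, the short-chain acyl-CoA dehydrogenase, was 10.11 to 10.46 (median 10.32) in HIGH and 10.55, 10.69, 10.53 and 10.54 in CON. The groups of ACADS did not overlap, with a difference of -0.28 (SE 0.08, adjusted p = 0.363). ACADL, the long-chain dehydrogenase, differed by -0.43 (9.83 to 10.54 in HIGH, 10.09 to 10.90 in CON), and ACADM, the medium-chain one, by -0.21 (13.04 to 13.34 in HIGH, 13.18 to 13.58 in CON). DECR1, an auxiliary enzyme for unsaturated fatty acids, differed by -0.36 without overlap. HADHB (-0.28), ACAA1 (-0.25), ACADVL (-0.25), ACOX2 (-0.29) and HADH (-0.22) completed the 10.

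Averaged over the 27 genes, log2 levels were 10.89, 10.91, 10.92, 10.98, 10.96 and 10.63 in HIGH, against 10.90, 11.21, 11.27 and 11 in CON. CON arrays 2 and 3 were highest, HIGH array 6 lowest, and CON array 1 was within the HIGH range. The count of lower genes was 18 without CON array 1, and 7 without CON array 2, CON array 3 or HIGH array 6, and the median kept its sign when each array was left out (-0.27 to -0.13). With the cyclophilin difference as a covariate the median was -0.17 with 7 genes lower, and with the elongation factor difference it was -0.11 with 6. On the 10 arrays of 1 d alone the median was -0.20 with 6 genes lower.

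Targets of PPAR-alpha, the nuclear receptor that fatty acids activate in fasting liver, also had a negative median difference. Of 23 listed, 15 were measured and 0 passed. By limma at an unadjusted p under 0.05, 3 (20%) were lower, against 4.13% of all genes, and 0 higher, and 1 of 15 was above 0, with a median of -0.27. With either control difference as a covariate, 1 was lower. ACADM belongs to both lists. PLIN2, a coat protein of lipid droplets, was 7.49, 8.32, 8.21, 8.16, 8.88 and 7.94 in HIGH, against 8.58, 8.44, 9.54 and 8.30 in CON, a difference of -0.55 (SE 0.23, adjusted p = 0.55). The PLIN2 groups overlapped, with CON array 3 above all others. CREB3L3, a liver transcription factor of fasting, differed by -0.49 (8.43 to 9.23 in HIGH, 8.88 to 9.98 in CON), PDK4, which restrains glucose oxidation, by -0.59 (SE 0.34), ANGPTL4, an inhibitor of lipoprotein lipase, by -0.50 (SE 0.29), and CYP4A22, a fatty acid hydroxylase, by -0.27. The receptor gene PPARA itself differed by 0.19. Without CON array 1 the lower members numbered 8, and without CON array 3 they numbered 1. Medians on the other days were -0.04 at -8 d and -0.007 at 9 d.

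In triglyceride synthesis and lipoprotein assembly, 31 of 39 listed genes were measured and 0 passed. At an unadjusted p under 0.05, 5 (16.1%) were lower, against 4.13% of all genes, and 1 (3.23%) higher, against 4.12%, and the median was -0.05. On the 10 arrays of 1 d alone 2 were lower, with the cyclophilin covariate 2 and with the elongation factor covariate 1. The lower count was 10 without CON array 1 and 3 without CON array 2, CON array 3, HIGH array 3 or HIGH array 6. APOA4, an apolipoprotein of triglyceride-rich particles, was 11.31, 10.74, 12.54, 10.64, 11.82 and 11.54 in HIGH, against 12.80, 12.75, 13.12 and 12.11 in CON, a difference of -1.21 (SE 0.43, adjusted p = 0.458). HIGH array 3 was the only one within the CON range of APOA4. The other lower members were APOA5, PLIN2, PCYT2 (-0.23) and APOH (-0.08), and the higher one was SAR1B, which drives the budding of lipoprotein-carrying vesicles (0.28). APOB, the core protein of very low density lipoprotein, differed by 0.00 (95% interval -0.19 to 0.19), and MTTP, which lipidates it, by -0.16 (-0.42 to 0.09). GPAM (-0.02) and DGAT2 (-0.05), acyltransferases of triglyceride synthesis, had differences near 0.

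In fatty acid synthesis and desaturation, 0 of 19 measured genes had an unadjusted p under 0.05 in either direction (limma). FASN, fatty acid synthase, differed by 0.11 (SE 0.28), its regulator SREBF1 by 0.27 (SE 0.26), and the desaturases SCD by -0.26 (SE 0.41) and FADS2 by -0.09 (SE 0.42). SCD ran from 6.82 to 9.64 in HIGH and from 7.56 to 9.57 in CON. For cholesterol synthesis and uptake, 14 of 16 measured genes were below 0, the median was -0.15, and 2 (TM7SF2 at -0.46 and EBP at -0.26) were lower at an unadjusted p under 0.05 (12.5%, against 4.13% of all genes). The median was -0.33 without CON array 1, -0.06 without CON array 3 and -0.008 without CON array 2. The count was 7 without CON array 1, 1 without HIGH array 3 and 0 without CON array 2 or CON array 3.

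Gluconeogenic genes showed no common direction. Of 30 measured, 16 were above 0, with a median of 0.01, and LDHA (-0.65, shared in sign by none of its other 2 probe sets) and MMUT (-0.17), the mutase that follows MCEE, were lower at an unadjusted p under 0.05. That is 6.67% of the list, against 4.13% of all genes, and 0 were higher. Without CON array 1 the median was -0.11 with 6 genes lower. PC, pyruvate carboxylase, was 11.40, 10.85, 11.85, 11.64, 12 and 11.37 in HIGH, against 11.74, 11.98, 11.76 and 11.78 in CON, a difference of -0.30 (95% interval -0.68 to 0.09). The CON arrays lay inside the wider HIGH range. PCK1, cytosolic phosphoenolpyruvate carboxykinase, was 14.00 to 14.24 in HIGH and 13.77 to 14.28 in CON, a difference of 0.01 (-0.13 to 0.15). G6PC1, glucose-6-phosphatase, differed by 0.14 (-0.19 to 0.48).

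Among genes of insulin and glycogen handling, INSR, the insulin receptor, was 5.67, 4.47, 5.96, 5.32, 5.25 and 5.42 in HIGH, against 4.96, 4.51, 4.15 and 4.68 in CON. HIGH arrays other than array 2 were above the CON arrays, with a difference of 0.73 (SE 0.26, adjusted p = 0.456), shared in sign by 4 of its 5 probe sets. The signal of INSR was dim, below the lowest array median of 5.87 in all of these arrays but HIGH array 3. PYGL, liver glycogen phosphorylase, differed by -0.37 (10.47 to 10.91 in HIGH, 10.81 to 11.36 in CON), SOCS3, an inhibitor of cytokine and insulin signalling, by 0.29, and PIK3CA by 0.25. In all, 3 of 23 measured genes were higher at an unadjusted p under 0.05, against 4.12% of all genes, and 1 lower, against 4.13%. The share of lower genes in the list was thus near that of all genes, and the median of the list was -0.03. Without CON array 3 or HIGH array 3, 1 was higher, and the median was 0.03 without CON array 1 and 0.02 without CON array 4 or HIGH array 1. In the growth hormone axis GHR differed by 0.25, IGF1 by 0.19, IGFBP1 by 0.20 and SOCS2 by -0.11, each with a 95% interval that spans 0.

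In methyl group and glycine metabolism, GNMT was the 1 higher gene and BHMT and FTCD were the 2 lower genes of 20 measured at an unadjusted p under 0.05 (10% lower and 5% higher, against 4.13% and 4.12% of all genes). The lower count was 0 without CON array 3 or HIGH array 5 and 1 without CON array 2, HIGH array 3 or HIGH array 6, and the higher count was 2 without CON array 2 or HIGH array 6. BHMT, which remethylates homocysteine with betaine, was 13.07, 11.91, 12.83, 12.51, 12.41 and 12.55 in HIGH, against 13.28, 13.11, 13.40 and 12.33 in CON. HIGH array 2 was lowest and CON array 4 next, and the difference was -0.48 (SE 0.21, adjusted p = 0.555). FTCD, of histidine and folate metabolism, differed by -0.26.

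**Figure D3:**
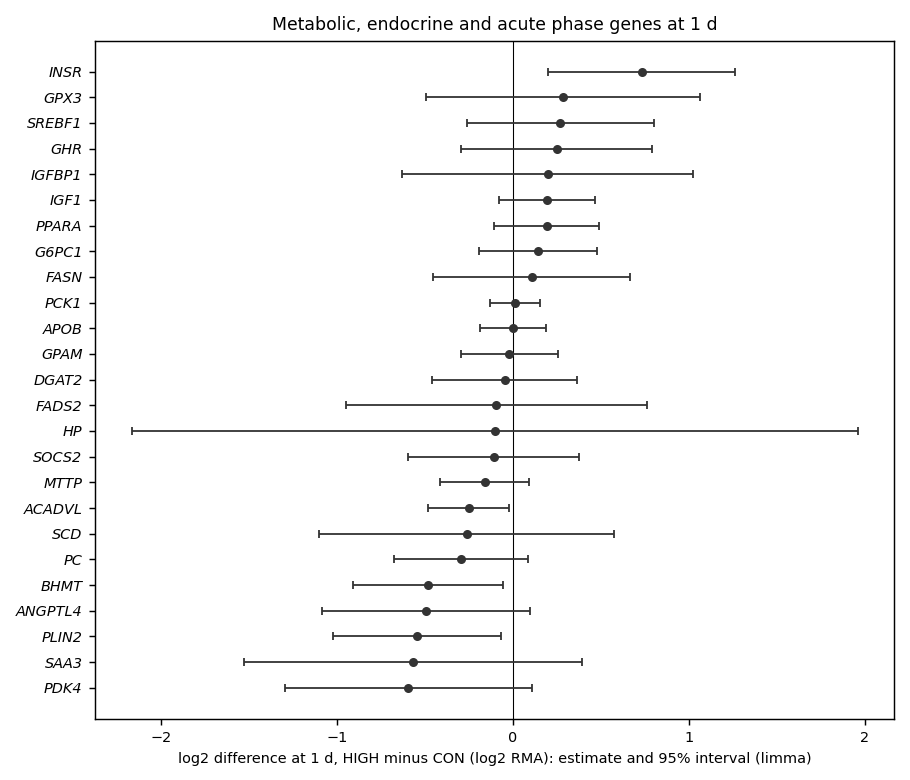
Estimated log2 difference at 1 d, HIGH minus CON, with its 95% interval (limma) for 25 metabolic, endocrine and acute phase genes. Intervals of ACADVL, PLIN2, INSR and BHMT do not reach 0 before adjustment, and PCK1 (-0.13 to 0.15) and APOB (-0.19 to 0.19) have the narrow ones.

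These 25 genes are the ones analysed here of 30 that were listed for metabolism, growth and the acute phase. None passed (lowest adjusted p = 0.456, limma), 4 had an unadjusted p under 0.05, 11 were above 0 and 14 below. For 9 of them the 95% interval lay within a 1.5-fold difference in both directions.

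The acute phase proteins had a median difference near 0. Of 26 measured, 14 were above 0, the median was 0.01 and 1, A2M, was higher at an unadjusted p under 0.05 (3.85%, against 4.12% of all genes). A2M, the protease inhibitor alpha-2-macroglobulin, was 12.78 to 13.88 (median 13.42) in HIGH and 12.92, 12.36, 12.84 and 12.08 in CON, a difference of 0.81 (SE 0.24, adjusted p = 0.385). HIGH array 4 was the only one below the highest CON array. Haptoglobin, HP, was 14.78 to 14.95 in HIGH and 14.84 to 14.88 in CON, just under the table's highest value of 15 in both diets. Its fitted difference of -0.10 has an SE of 1.01, because the model takes its spread from all days, and carries no direction: the means at 1 d were 14.87 in both diets. SAA3, serum amyloid A, was 10.50, 10.51, 13.34, 11, 11.10 and 11.13 in HIGH, against 12.93, 12.51, 10.59 and 11.41 in CON, a difference of -0.57 (SE 0.47). HIGH array 3 and CON arrays 1 and 2 were high.

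Interferon-stimulated genes, an antiviral set, had the highest median difference of the lists. Of 42 listed, 30 were measured and 0 passed. At an unadjusted p under 0.05, 6 (20%) were higher, against 377 of all genes (4.12%), and 0 lower, with 24 of 30 above 0 and a median of 0.23. On the 10 arrays of 1 d alone, 1 was higher. The median was 0.15 at -8 d and 0.03 at 9 d. GBP4, an interferon-induced GTPase, was 6.96, 7.16, 6.37, 5.26, 5.13 and 7.84 in HIGH, against 6.37, 4.64, 5.69 and 5.24 in CON, a difference of 0.92 (SE 0.41, adjusted p = 0.557). SAMD9 differed by 0.49, OAS1X, a sensor of viral RNA, by 0.53, and HERC6 by 0.20, while the antiviral GTPase MX1 differed by 0.59 and ISG15 by 0.46 at unadjusted p of 0.202 and 0.364.

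The interferon list was high in some cows of each diet. Its mean level was 7.91, 7.97, 7.32, 7.65, 7.21 and 7.87 in HIGH, against 7.98, 7.13, 7.29 and 7.12 in CON. HIGH arrays 1, 2, 4 and 6 and CON array 1 were high. HIGH array 3 was just above the other 3 CON arrays, and HIGH array 5 was among them. The count of higher genes was 13 without CON array 1, 3 without CON array 3 or HIGH array 4, 1 without CON array 2, HIGH array 1 or HIGH array 6, and 0 without CON array 4 or HIGH array 2, while the median stayed above 0 (0.17 to 0.35). The count was 0 with the cyclophilin covariate, where the median was 0.14, and 7 with the elongation factor covariate, where the median was 0.30. Of 16 measured T and NK cell markers, 13 were above 0 with a median of 0.09, none with an unadjusted p under 0.05 (limma), and their mean level was 5.44 to 5.95 in HIGH and 5.42 to 5.71 in CON. Of 11 Kupffer cell and macrophage markers, 8 were above 0, with mean levels of 9.59 to 10.30 in HIGH and 9.63 to 9.89 in CON. Only CSF1R, at 0.31, had an unadjusted p under 0.05 (limma), which is 9.09% of these markers, against 4.12% of all genes. The part of such cells in the interferon list was not tested, and in these biopsies a change in the number of cells of a type and a change of RNA per cell cannot be told apart. PSMB10 (0.41) and PSMB8 (0.37), interferon-inducible proteasome subunits, were higher at an unadjusted p under 0.05.

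**Figure D4:**
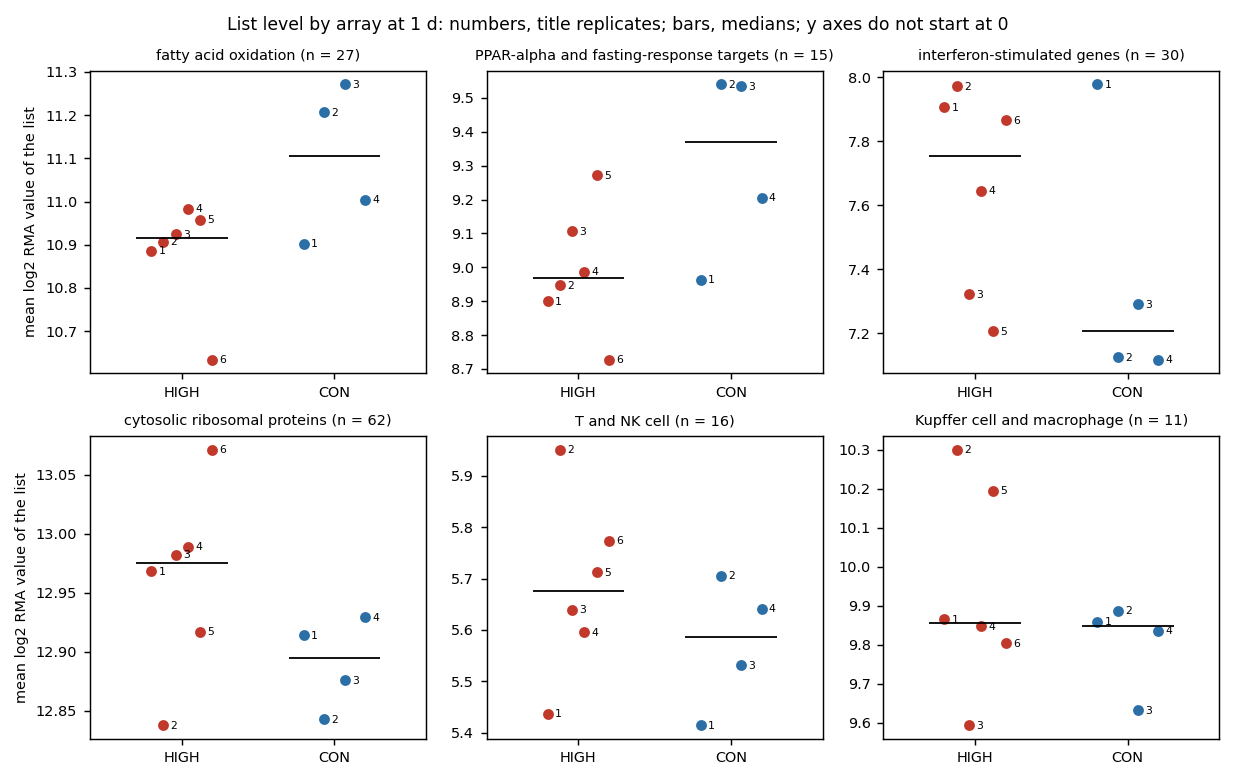
Mean log2 RMA value of the measured genes of 6 lists (y axes, which do not start at 0) by array in HIGH and CON, numbered by title replicate, with bars at the medians. CON array 1 lies with the HIGH arrays for fatty acid oxidation (10.90) and interferon-stimulated genes (7.98).

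Cytosolic ribosomal proteins had small differences of mostly one sign. Of 62 measured, 57 were above 0, with a median of 0.08. At an unadjusted p under 0.05, 11 (17.7%) were higher, against 4.12% of all genes, and 0 lower, and none passed (limma). On the 10 arrays of 1 d alone, 2 were higher. RPS15A (0.16), RPL22 (0.18), RPS21 (0.21) and RPL27A (0.12) had the smallest p. On the other days 11 of 62 (median -0.04, -8 d) and 43 of 62 (median 0.02, 9 d) were above 0. The count at 1 d was 21 without HIGH array 2, 3 without CON array 2, 5 without CON array 3 or HIGH array 6, and 7 without HIGH array 1 or HIGH array 3. With the cyclophilin covariate it was 0, with a median of 0.03. With the elongation factor covariate it was 12 beside 1 lower, with a median of 0.09. The part of RNA integrity in this list was not tested beyond these 2 covariates.

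Chaperones and translocon genes of the endoplasmic reticulum had a positive median difference at 1 d and negative ones on the other days. Of 26 measured, 19 were above 0 at 1 d (median 0.09), 0 at -8 d (median -0.30) and 11 at 9 d (median -0.03). PDIA3 was 13 to 13.58 (median 13.34) in HIGH and 13.11, 12.73, 12.74 and 13.27 in CON, a difference of 0.32 (SE 0.11, adjusted p = 0.44), and SEC61A1, of the protein-conducting channel, differed by 0.45 and SEL1L, of the degradation pathway, by 0.31. PDIA3 was the list member with the smallest p for the difference between these days (adjusted p = 0.353), so no gene passed the test of that difference. At an unadjusted p under 0.05, 3 of the 26 (11.5%) were higher at 1 d, against 4.12% of all genes, and 0 lower. Without CON array 2 the median at 1 d was -0.0005, and 1 gene was higher in place of 3. That count was also 1 without HIGH array 3 or HIGH array 6, and 6 without HIGH array 1.

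In oxidative stress defence, 4 of 30 measured genes (13.3%) were higher, against 4.12% of all genes, and 0 lower at an unadjusted p under 0.05, with a median of 0.05. The higher count was 2 on the 10 arrays of 1 d alone. With the cyclophilin covariate it was 2, with a median of -0.005, and with the elongation factor covariate 3, with a median of 0.04. Without CON array 4 it was 6 beside 2 lower. The 4 higher genes were the peroxiredoxins PRDX4 (0.39) and PRDX5 (0.29), the glutathione peroxidase GPX1 (0.33) and the ferritin heavy chain FTH1 (0.09). PRDX4 was 11.90 to 12.55 in HIGH and 11.48 to 11.91 in CON, overlapping by a single HIGH array. GPX3, a secreted glutathione peroxidase, was 8.42 to 9.88 in HIGH and 7.66 to 9.82 in CON, a difference of 0.29 (95% interval -0.49 to 1.06).

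Of steroid enzymes, CYP11A1, which cleaves the cholesterol side chain, was 9.54, 10.92, 10.74, 9.69, 9.28 and 10.75 in HIGH, against 8.69, 8.88, 8.05 and 10.20 in CON. CON array 4 lay within the HIGH range and the other CON arrays below it, with a difference of 1.17 (SE 0.57, adjusted p = 0.595) and diet differences of 0.86 at -8 d and 0.93 at 9 d. SHBG, the sex hormone carrier, differed by -0.46 and HSD17B6 by -0.21. In xenobiotic metabolism 2 of 28 measured genes (7.14%) were higher at an unadjusted p under 0.05, against 4.12% of all genes. On the lower side there were 4 (14.3%), against 4.13%. The higher genes were POR (0.29) and GSTT1, a glutathione transferase that differed by 0.55 at 1 d, 0.85 at -8 d and 0.70 at 9 d. FMO1 (-0.22) and CES2 (-0.25) were among the lower genes. On the 10 arrays of 1 d alone 0 were higher and 2 lower. With the cyclophilin covariate these counts were 1 and 1, and with the elongation factor covariate 3 and 2. When single arrays were left out, 0 to 3 were higher and 2 to 6 lower.

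Cell cycle genes had a median of -0.17 over 31 measured, with 10 above 0 and 1, TYMS (-0.58), lower at an unadjusted p under 0.05 (3.23%, against 4.13% of all genes). The median was -0.04 without CON array 3, -0.02 with the elongation factor covariate and -0.40 with the cyclophilin covariate. That count was 2 without CON array 1, 6 without HIGH array 1, whose RRM2 (6.21) and MCM7 (8.39) were the highest of the HIGH arrays, and 0 without CON array 2, CON array 3, CON array 4, HIGH array 5 or HIGH array 6. Extracellular matrix and adhesion genes had a median of 0.13 over 36 measured, with TNC (0.98, not shared in sign by its other probe set) and TIMP3 (0.38) higher at an unadjusted p under 0.05. That is 5.56% of the list, near the 4.12% of all genes, and the count was 6 without CON array 1, 4 without HIGH array 1 or HIGH array 4, 1 without CON array 2, CON array 3, CON array 4 or HIGH array 2, and 0 without HIGH array 6. Oxidative phosphorylation (median 0.02 over 72 genes), the citric acid cycle (-0.05 over 21), the urea cycle and amino acid breakdown (-0.04 over 25), the proteasome (-0.006 over 31), and complement and coagulation (-0.008 over 36) lay close to the median of all genes. Medians were 0.06 over 24 genes of the amino acid response, 0.06 over 32 of cytokines and NF-kB, 0.05 over 30 immediate early and heat shock genes, 0.13 over 18 of the growth hormone and IGF axis, 0.11 over 17 of antigen presentation, -0.02 over 15 plasma proteins lowered in the acute phase, 0.002 over 7 of bile acid disposal and 0.08 over 4 of ketogenesis. No gene of these 13 lists passed (limma). At an unadjusted p under 0.05, oxidative phosphorylation held 4 higher genes (5.56%) and 1 lower (1.39%), and the proteasome 3 (9.68%) and 1 (3.23%). Each of the other 11 lists held 0 to 2 in either direction. Of all genes, 4.12% were higher and 4.13% lower.

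**Figure D5:**
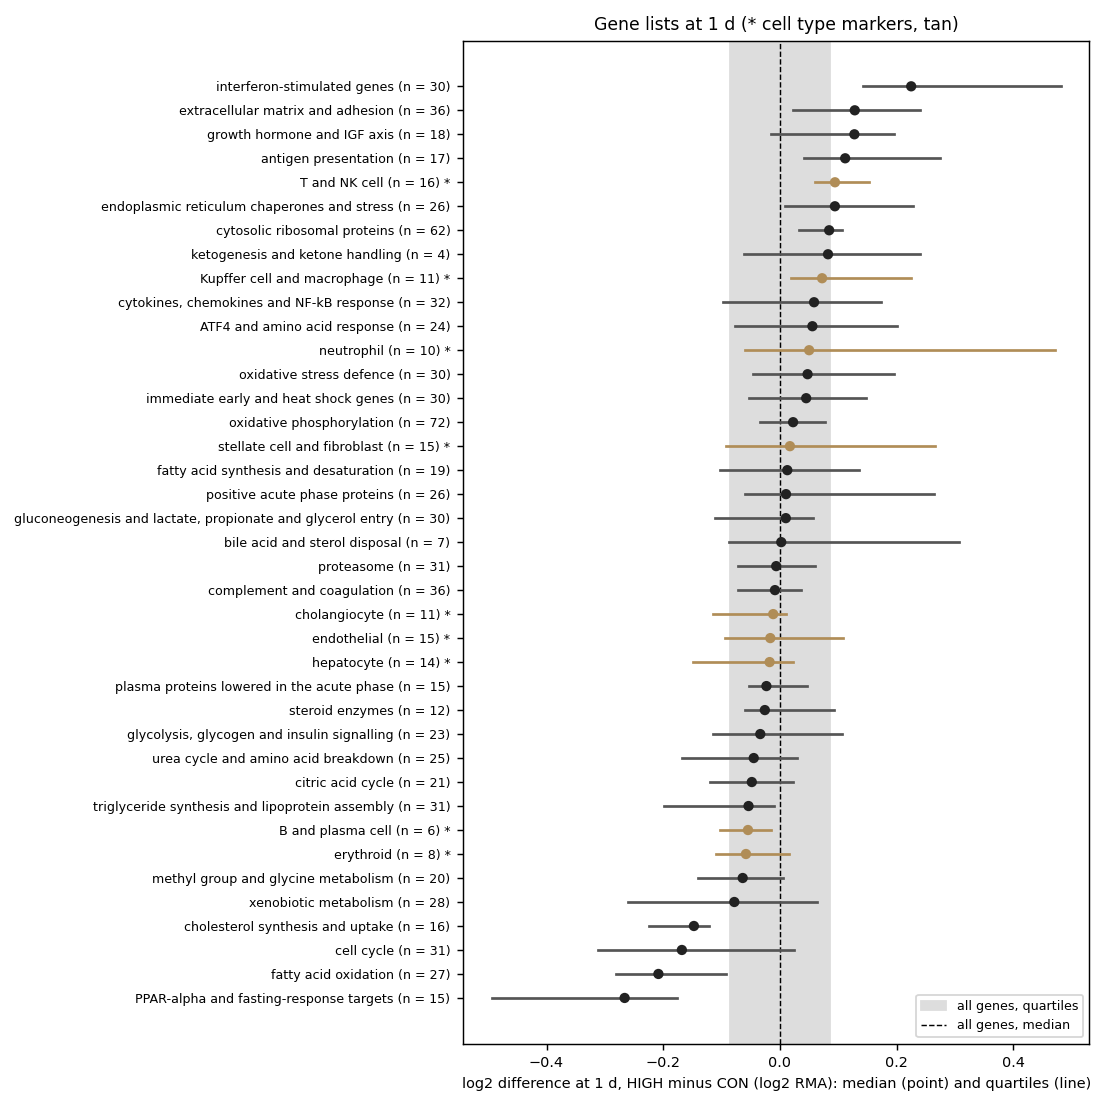
Median (point) and quartiles (line) of the log2 difference at 1 d, HIGH minus CON, over the measured genes of each list, with the quartile range of all genes shaded (-0.0848 to 0.0862). By median, the PPAR-alpha list (-0.27) and fatty acid oxidation (-0.21) lie lowest and the interferon list (0.23) highest. Medians of the cell type marker lists, in tan, stay between -0.06 and 0.09, with quartile lines that reach further (to 0.47 for neutrophil markers).

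None of the 9 marker lists held a gene past the threshold by limma. At an unadjusted p under 0.05 they held CSF1R (1 of 11 Kupffer cell and macrophage markers) on the higher side. ENG (0.32) and STAB1 (0.24), 2 of 15 endothelial markers, were also higher. On the lower side were the haemoglobin gene HBB (-1.11, shared in sign by 2 of its 4 probe sets), 1 of 8 erythroid markers, and CFTR (-0.23), 1 of 11 cholangiocyte markers. The other marker lists held none. Of all genes, 4.12% were higher and 4.13% lower, and in lists this short a single gene is a large share. Mean levels of the 8 erythroid markers were 4.46 to 4.59 in HIGH and 4.52 to 4.83 in CON, those of the 10 neutrophil markers 5.70 to 6.55 in HIGH and 5.61 to 6.07 in CON, and those of the 15 stellate cell and fibroblast markers 6.70 to 7.77 in HIGH and 6.98 to 7.34 in CON. B and plasma cell, endothelial and cholangiocyte marker levels overlapped between the diets.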

How the data were processed

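The authors deposited log2 values made with Affymetrix Expression Console 1.1 and RMA, per the submitters' processing notes, from biotin-labelled cRNA of liver biopsies hybridised to Affymetrix bovine arrays. RMA corrects background, brings arrays to a common distribution and summarises probes, so a difference is measured against the other probe sets of the array, and very bright and very dim ones are compressed. Its settings are not given in the sources used here. The table lists 24128 probe sets; without the 112 controls, 24016 entered the test, with no filter on level. One gene symbol was given to 13292 (9155 genes), several to 86 and none here to 10638, through the array annotation, which names no genome build. A gene took its value from its brightest probe set, by the average of the 32 arrays. The number of arrays limits the precision.

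The test was limma 3.58.1 (R 4.3.3) on 6 group means over 32 arrays, treating arrays of 1 cow as correlated (duplicateCorrelation, 0.138), with 26 residual degrees of freedom and a trended prior variance. The two-sided p of each contrast were Benjamini-Hochberg adjusted across all 24016, and the threshold was 0.05. It was tested on simulated data. Control 3' and 5' probe sets were compared by exact permutation. The design text gives more cows than the 12 in the labels. Titles number the replicates within each group, and the labels' cow numbers link arrays across days, so same-numbered HIGH and CON arrays are different cows.

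Named were the 12 genes per direction with the smallest p (those past the threshold first), 5 genes per interaction, 30 chosen metabolic, endocrine and acute phase genes, of which 25 are used here, and up to 4 members per list. Other genes were named after their values were seen. The comparison, genes, lists (30 pathways, 9 cell types) and rules were chosen with earlier results of these data known, so lists are described by counts and medians, with no test. Alternatives changed the arrays, block, variance model, weights, level filter, normalization, covariate and probe sets, and left out each array of 1 d in turn.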

Additional observations from a re-analysis of the deposited data

Results flagged for a closer look

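In 193 named genes, each diet group at 1 d was examined for an array that lay far from the rest of its group (gap over range above Dixon's 95% value). Of 386 groups, 21 (5.44%) held one, and chance alone gives about 1 in 20. HIGH array 2 held 5, HIGH array 1 held 3, HIGH array 6 held 2, HIGH arrays 3 and 5 held 1 each, CON arrays 1 and 2 held 4 each and CON array 3 held 1.

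Among the leading genes, UBN2 was 4.88 in HIGH array 1 (4.40 to 4.57 in the other HIGH arrays), GATM was 12.69 in HIGH array 2 (11.91 to 12.17), IPO4 was 5.29 in HIGH array 2 (5.63 to 5.73) and POLG was 8.17 in HIGH array 5 (7.94 to 7.98). Among the genes with the smallest p between days, TEDC2 was 6.16 in CON array 2 (6.58 to 6.65) and ACADS was 10.69 in CON array 2 (10.53 to 10.55).

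Of the metabolic, endocrine and acute phase genes, IGF1 was 8.61 (7.65 to 7.87) and IGFBP1 was 10.83 (12.49 to 13.26) in HIGH array 2. SAA3 was 13.34 in HIGH array 3 (10.50 to 11.13). PC was 11.98 in CON array 2 (11.74 to 11.78) and ACADVL was 11.44 in CON array 1 (11.85 to 11.92).

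Of the list members, the HIGH arrays that stood apart were array 6 for FBP1 at 10.54 (11.49 to 11.99) and IDH1 at 10.67 (11.48 to 11.74), array 2 for SLC51B at 9.81 (8.03 to 8.67), and array 1 for OAS1X at 4.84 (5.63 to 5.95) and HSD17B6 at 13.60 (13.37 to 13.44). CON array 1 stood apart for S100A8 at 9.55 (8.86 to 8.97), HGD at 13.03 (13.16 to 13.18) and PDHB at 9.04 (9.83 to 9.96), CON array 3 for NFKB2 at 4.98 (4.52 to 4.53), and CON array 2 for ANXA4 at 12.89 (13.07 to 13.08).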

How the results depend on the processing

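For diet at 1 d, where 1 probe set passed, 0 passed with only the 10 arrays of 1 d (1145 unadjusted), with array weights (1482), with only probe sets above the median level (SLC18A2 was not among them), with only the cows with arrays on all 3 days, with the cyclophilin covariate, without the arrays of -8 d or without those of 9 d (the last 3 chosen after seeing the data). With no cow block, with each array centred on its median and with quantile normalization repeated, 2 passed, SLC18A2 and an unnamed probe set. With the elongation factor covariate 1 passed, an unnamed lower probe set in place of SLC18A2 (adjusted p = 0.118). The count stayed at 1 without the mean-variance trend and with robust empirical Bayes. Leaving out single arrays gave 0 to 5 for diet at 1 d (0 without CON array 3 and HIGH arrays 3, 5 and 6, 5 without HIGH array 1), 0 to 1 for the difference between 1 d and -8 d and 0 to 2 for that between 1 d and 9 d, and the other alternatives fitted for these differences gave 0 for both. These differences were not computed in the 10-array fits or in those without the arrays of a day. The titles' replicate numbers do not pair cows. With a replicate block over the 10 arrays, 0 probe sets passed (1054 unadjusted), and SLC18A2 differed by 0.57 (adjusted p = 0.997). The 24 leading genes kept their sign in all 592 values over 25 settings. They were chosen for small p in the same contrast and largely the same arrays, so this follows from the choice and tests nothing. Of 699 values of the other 28 genes followed, 55 changed sign, none of them called. List medians kept their sign in all 24 settings for fatty acid oxidation, PPAR-alpha targets, interferon-stimulated genes and ribosomal proteins. This was not particular to them. It also held for other lists, among them cholesterol synthesis, triglyceride synthesis, the citric acid cycle, xenobiotic metabolism, cell cycle and extracellular matrix. The cause of these changes was not tested. Arrays of 4 and 6 cows left a median interval of 0.212 to either side.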

Other observations

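The genes that varied most among the arrays of 1 d within a diet were chosen after their values were seen. BOLA-N and PRSS2 differed among cows of both diets. Others varied mainly in 1 diet, such as S100A10 (SD 2.07 in HIGH, 0.50 in CON) and CCL26 (0.53 in HIGH, 2.00 in CON). BOLA-N, a class I histocompatibility gene, was 10.21, 7.76, 4.44, 4.73, 4.62 and 10.13 in HIGH, against 5.02, 9.84, 4.57 and 9.49 in CON, a difference of -0.30 (SE 1.34), and its standard deviation within diets was 2.78. PRSS2, a trypsinogen, was 7.71, 7.75, 4.04, 4.17, 7.60 and 4.06 in HIGH, against 3.92, 4.17, 4.28 and 7.79 in CON, with a standard deviation within diets of 1.92. For PRSS2 the arrays fell into a high set of 3 HIGH arrays and 1 CON array and a low set of 3 HIGH and 3 CON arrays.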
